A study of Mus musculus with 24 samples.

Results

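The response of MC38 tumours with intact Chek2 to an antibody against PD-1 was measured by RNA sequencing of whole tumour tissue. MC38 is a mouse colon carcinoma line. The comparison rests on 6 of the 24 libraries of the study, chosen by their labelled condition: 3 from tumours of the parental, CHEK2-WT line in mice that received anti-PD-1, and 3 from tumours of the same line in mice that received PBS. The other libraries come from MC38 tumours in which CHEK2 was knocked out and from B16 melanoma tumours of both genotypes, each with PBS or anti-PD-1, in groups of 3. The MC38 knock-out (KO) libraries share the estimate of spread in the test, and with the B16 WT libraries they serve to test whether the WT response differed from theirs. Mouse strain, sex, age, antibody dose, the day of collection and whether the line is a single clone are not given in the sources used here. Separate mice are not stated for the 3 libraries of a group, so p-values measure the spread between these samples, which may be partly technical.

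PD-1, encoded by Pdcd1, is an inhibitory receptor of activated T cells, and its ligands PD-L1 (Cd274) and PD-L2 (Pdcd1lg2) sit on tumour and myeloid cells. An antibody that blocks the receptor can release CD8 T cells, which kill with granzymes and perforin and secrete interferon-gamma. Interferon-gamma in turn induces the chemokines Cxcl9 and Cxcl10, antigen presentation by MHC molecules, and PD-L1 itself. Tumours are bulk tissue, so fewer cells of a type and less RNA per cell cannot be told apart in any value below.

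Expression of 55335 genes was deposited as FPKM, a fragment count divided by the size of the library and the length of the transcript. They summed to between 321638 and 339409 per library, and a depth of 14620000 to 20180000 full-read equivalents was estimated from the spacing of the lowest values. Mitochondrially encoded genes held 14.1% to 17.2% of the FPKM. Pearson correlations of log2(FPKM + 1) across genes ran from 0.976 to 0.982 within a group and from 0.967 to 0.980 between groups, so the libraries of one treatment were hardly more alike than those of both. The first principal component held 33.4% of the variance and ran from PBS replicate 3 to anti-PD-1 replicate 2. The titles of anti-PD-1 replicates 2 and 3 lack the letter C that the other MC38 titles carry, and what it stands for is not given. In anti-PD-1 replicate 2 skeletal muscle and fat markers were far above the other 5, as described at the end. Of 12 colon epithelium markers only Cdh1 and Krt18 passed the filter on low values. Epcam reached at most 1.75 FPKM, and the intestinal transcription factors Cdx1 and Cdx2 were listed at 0 in all 6 libraries, while Cdh1 had 1.07 to 3.01 FPKM and Krt18 0 to 5.19 FPKM. The melanocyte genes Mlana, Tyr and Tyrp1 were also listed at 0.

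No gene passed the test. Of 13323 genes that reached 1 FPKM in 3 or more of the 6 libraries, limma called 0 (0%) at an adjusted p under 0.05, and the smallest adjusted p was 0.0654, shared by 17 genes. At an unadjusted p under 0.05 there were 1896 genes (14.2%), against the 666 that a uniform distribution of p would give. Of these, 1078 (8.09%) were higher and 818 (6.14%) lower with anti-PD-1. In 2474 genes (18.6%) the 3 treated libraries lay entirely on 1 side of the 3 PBS libraries, 1351 of them higher (10.1%) and 1123 lower (8.43%). The median log2 difference over all genes was 0.02. The outcome depended on how the spread was estimated. When all 24 libraries shared the estimate, limma called 104 genes, 56 higher and 48 lower. With only the 6 WT libraries it called 3. Differences below are therefore given as values, on the log2(FPKM + 1) scale as anti-PD-1 minus PBS ± standard error, with adjusted p-values of the 12-library MC38 fit. This scale understates the change of genes with low FPKM.

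Genes of CD8 T cells and cytotoxicity were at nearly the same level in treated and untreated WT tumours. Cd8a, the CD8 co-receptor, had 7.06, 6.43 and 3.99 FPKM in the PBS libraries and 6.22, 6.36 and 5.92 FPKM with anti-PD-1. The treated libraries all lay inside the PBS range, and the log2 difference was 0.10 ± 0.178 (adjusted p = 0.84). Gzmb, encoding granzyme B, had 22.9, 14.7 and 29.4 FPKM with PBS and 22.4, 20.2 and 34 FPKM with anti-PD-1 (log2 0.20 ± 0.311, adjusted p = 0.807). Ifng stood at 3.52 ± 0.589 FPKM with PBS and 3.48 ± 1.22 FPKM with anti-PD-1 (SD, n = 3), a difference of -0.05 ± 0.268. Perforin, Prf1, was at 5.83 ± 2.19 and 5.13 ± 0.824 FPKM, with PBS replicate 3 (8.36 FPKM) above all other libraries. Across 11 tested members of the CD8 and cytotoxic list, none had groups that did not overlap (18.6% of all genes had). None had an unadjusted limma p under 0.05 (14.2% of all genes had), and the median difference was 0.09. In the T cell receptor and pan T cell list 13 of 13 members overlapped, with a median of -0.05. Trac, the alpha chain constant region of the receptor, went from 9.07 ± 1.91 to 8.18 ± 0.897 FPKM. Foxp3, the regulatory T cell factor, stayed under the filter, at 0.461 FPKM or less in every library.

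**Figure D1:**
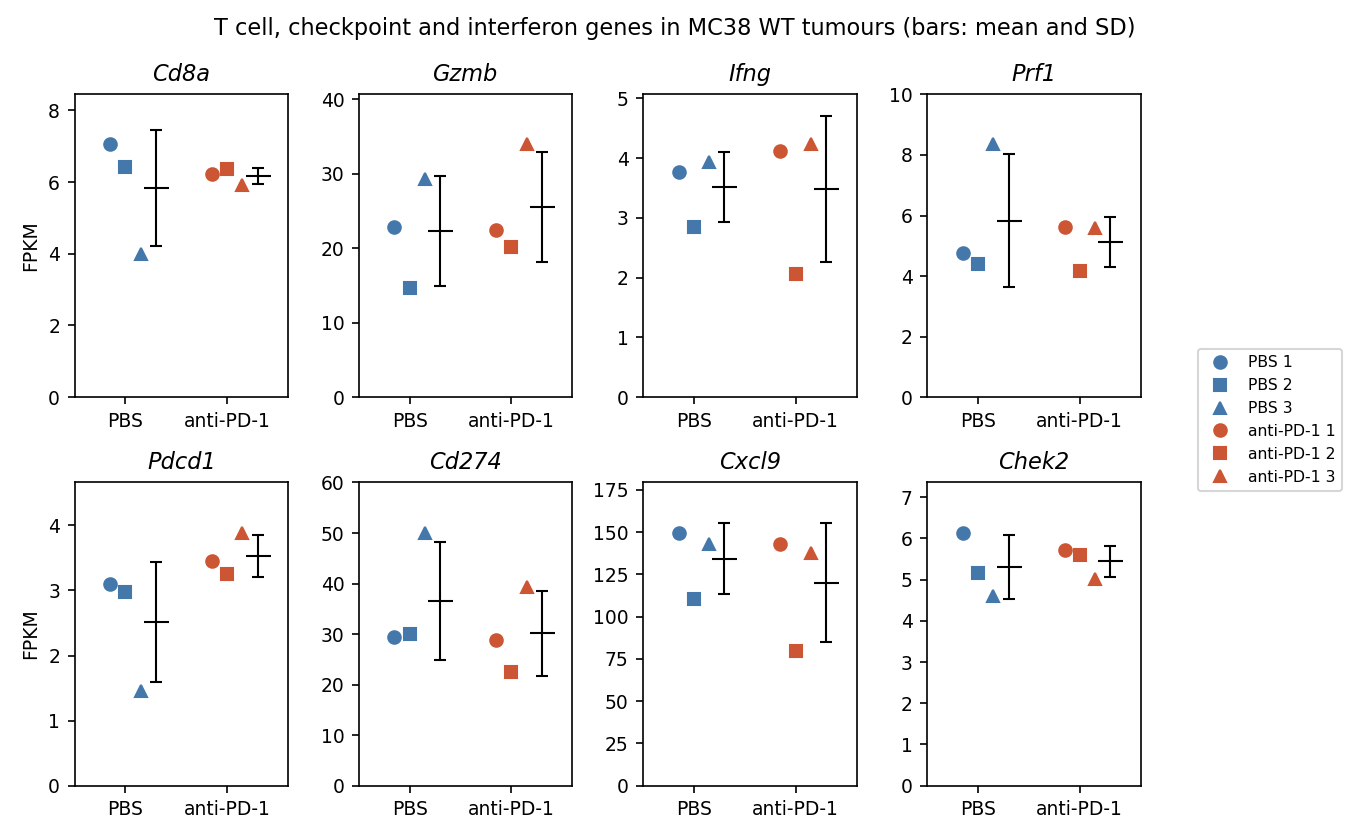
FPKM of 7 immune genes and Chek2 in each MC38 WT library, with PBS in blue and anti-PD-1 in red, symbols for replicates, and black bars for the mean and SD of 3 libraries. Treated and untreated points overlap in every gene except Pdcd1, where the 3 treated libraries lie just above the 3 PBS libraries.

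The receptor that the antibody binds differed a little more. Pdcd1 had 3.11, 2.98 and 1.46 FPKM with PBS and 3.46, 3.25 and 3.89 FPKM with anti-PD-1, so the groups did not overlap, yet most of the distance came from PBS replicate 3 (log2 0.40 ± 0.198, adjusted p = 0.39). Without that library the difference was 0.16. Cd274, encoding PD-L1, had 29.5, 30 and 50.1 FPKM with PBS and 28.8, 22.5 and 39.2 FPKM with anti-PD-1, and the groups overlapped (log2 -0.26 ± 0.232). Pdcd1lg2, encoding PD-L2, was lower in all 3 treated libraries, at 0.831, 0.747 and 1.35 FPKM against 1.74, 1.79 and 4.64 FPKM (log2 -0.84 ± 0.298, adjusted p = 0.234). Of 9 tested members of the checkpoint list, 2 were higher without overlap (10.1% of all genes were), Pdcd1 and Havcr2 (TIM-3, log2 0.22 ± 0.174). Pdcd1lg2 alone was lower without overlap (8.43% of all genes were), and the other 6 overlapped. So few members do not set the list apart from all genes. The costimulatory receptor OX40, Tnfrsf4, was lower in all treated libraries, at 1.39 ± 0.111 against 2.21 ± 0.218 FPKM (log2 -0.43 ± 0.112, adjusted p = 0.147). Chek2, which is intact in both groups, was level at 5.30 ± 0.775 and 5.44 ± 0.376 FPKM.

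Interferon-induced genes and MHC class I genes were, if anything, lower with anti-PD-1. Of 25 genes of interferon-gamma signalling and response, 22 had a difference below 0 (6063 of all 13323 genes had), with a median of -0.15. Only 2 of the 25 were lower without overlap, near the 8.43% of all genes that were, and none was called. Cxcl9 had 150, 111 and 143 FPKM with PBS and 143, 79.6 and 138 FPKM with anti-PD-1. Its lowest treated library was anti-PD-1 replicate 2, which was also lowest for Cxcl10 (91.1 FPKM). Without that library the list's median was -0.01, and the type I interferon list, at a median of -0.13 with 20 of 26 genes below 0, moved to 0.01. Gbp9, a guanylate-binding GTPase, was at 49.3, 51.5 and 65.7 FPKM with PBS and 31.5, 25.9 and 50.9 FPKM with anti-PD-1 (log2 -0.65 ± 0.200), with overlap between groups. Its gene model overlaps that of Gbp4 (log2 -0.50 ± 0.228), and reads of the pair may not be told apart.

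The MHC class I heavy chain genes H2-Q6, H2-Q4, H2-K1 and H2-D1 were lower in every treated library than in any PBS library. They were 4 of 20 tested members of the MHC class I list, against 8.43% of all genes. The heavy chain genes H2-Q7, H2-T22, H2-T23 and H2-M3 overlapped between groups. H2-Q7 had 99.9, 107 and 113 FPKM with PBS and 96.7, 96.6 and 107 FPKM with anti-PD-1. H2-Q6, at chr17:35424850-35430055 of mm10, had 188, 195 and 217 FPKM with PBS and 128, 139 and 152 FPKM with anti-PD-1. That is a log2 difference of -0.52 ± 0.0776 with the smallest adjusted p of the comparison, 0.0654. H2-Q4 next to it differed by -0.54 ± 0.0937 (adjusted p = 0.0714), and H2-K1 and H2-D1 by -0.30 ± 0.103 and -0.28 ± 0.0858. The Q-region genes are near-identical copies, and shared reads make their separate values uncertain. Over the MHC class I list, 18 of 20 members were below 0 with a median of -0.14 (-0.05 without anti-PD-1 replicate 2), and B2m, the shared light chain, overlapped between groups (3467 ± 114 and 3110 ± 587 FPKM). Among MHC class II genes, H2-Aa and H2-Eb1 were level (184 ± 14.2 against 172 ± 6.34 FPKM for H2-Aa). H2-DMb2, part of the peptide-loading chaperone, was lower at 1.93, 2.28 and 1.63 FPKM against 3.56, 3.17 and 4.16 FPKM (log2 -0.65 ± 0.126, adjusted p = 0.0775). The related H2-DMb1 had 28.6, 22.3 and 30.7 FPKM with PBS and 24.5, 23.8 and 24.5 FPKM with anti-PD-1. H2-DMa had 7.59, 7.31 and 9.29 FPKM with PBS and 9.99, 7.86 and 10.1 FPKM with anti-PD-1. Both overlapped between groups.

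Heat shock proteins and their co-chaperones were higher together with anti-PD-1. Heat shock factor 1, HSF1, induces these genes when unfolded protein accumulates. HSF1 binds repeats of the element GAA and its reverse complement TTC in their promoters. The group of 24 tested genes was assembled after their values had been seen, so its counts describe and test nothing. All 24 had a difference above 0, 18 were higher in every treated library than in any PBS library (10.1% of all genes were), and the median was 0.37 against 0.02 over all genes. The sequences below show where the element stands near the start sites of 5 members that were higher without overlap. They come from RefSeq promoters of GRCm38.p6, each 30 bases long and written 5′ to 3′ on the strand of the gene, with matches to GAANNTTCNNGAA (the first 3 genes) or GAANNTTC (the last 2), on either strand, in capitals.
Hsph1: gctgcagaTTCTGGAAAGTTCtcctcagta
Hspd1: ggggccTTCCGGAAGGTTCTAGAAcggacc
Chordc1: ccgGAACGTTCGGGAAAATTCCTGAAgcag
Fkbp4: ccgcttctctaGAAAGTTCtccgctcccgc
Dnaja1: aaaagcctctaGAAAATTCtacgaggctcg

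These stretches lie at chr5:149636279-149636308 (Hsph1, minus strand), chr1:55088053-55088082 (Hspd1, minus strand), chr9:18292260-18292289 (Chordc1, plus strand), chr6:128438789-128438818 (Fkbp4, minus strand) and chr4:40722333-40722362 (Dnaja1, plus strand). Where several start sites of a gene held a match, the start site with the match farthest upstream was taken, and positions depend on that choice. The matches begin 144 bases before the start site in Hspd1, 151 in Fkbp4 and 124 in Dnaja1. In Hsph1 the match spans bases 16 to 28 counted from the start site taken. In Chordc1 the overlapping matches run from 4 bases before the start to base 19. Hspd1 and Hspe1 are transcribed away from each other, and the match between them was counted for both. Of 19 list members with a promoter window (250 bases before to 50 after the start), 4 held GAANNTTCNNGAA and 11 held GAANNTTC, a part of the longer motif. Over 9098 tested genes with a window the shares were 0.506% and 6.9%, and over all 27025 genes they were 0.662% and 9.04%. Hspa1a, Hspa1b, Hspb1 and Hspe1, whose groups overlapped, were among the members that held GAANNTTC, so the element did not mark only genes that separated the groups. The list was chosen as HSF1 targets and chaperones, so its shares do not test the element. A match describes the letters of the window and not a bound site.

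Hsph1, encoding the HSP70 nucleotide exchange factor HSP110, had the largest difference of the list after Cryab. It lies at chr5:149614287-149636376 and had 20.2, 17.5 and 14.7 FPKM with PBS and 36.1, 31.4 and 49.8 FPKM with anti-PD-1, a difference of 1.11 ± 0.199 (adjusted p = 0.0739). All 3 treated libraries lay above all 3 PBS libraries. Cryab, a small heat shock protein, had 2.78, 3.22 and 1.95 FPKM against 9.99, 4.55 and 10.4 FPKM (log2 1.29 ± 0.315, adjusted p = 0.133). Dnajb1, the HSP40 partner of HSP70, was at 22.1, 22.3 and 16.8 FPKM with PBS and 31.2, 31.3 and 43.4 FPKM with anti-PD-1 (log2 0.76 ± 0.168).

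Partners of HSP90 followed with small spreads. Fkbp4, an immunophilin that binds HSP90, had 95.5, 86.1 and 76.1 FPKM with PBS and 163, 127 and 131 FPKM with anti-PD-1 (log2 0.70 ± 0.108, adjusted p = 0.0654). Stip1, which hands clients from HSP70 to HSP90, had 123, 107 and 102 FPKM against 175, 151 and 156 FPKM (log2 0.53 ± 0.0879, adjusted p = 0.0654). Chordc1 and Ahsa1, further HSP90 co-chaperones, differed by 0.43 ± 0.0864 and 0.36 ± 0.0825, and HSP90 beta itself, Hsp90ab1, by 0.30 ± 0.0962. The mitochondrial chaperonin Hspd1 was at 242, 221 and 233 FPKM with PBS and 311, 294 and 279 FPKM with anti-PD-1 (log2 0.34 ± 0.0694, adjusted p = 0.0839). Its partner Hspe1, whose gene model overlaps it at the start, differed by 0.23 ± 0.0854 with overlap between groups. Of the list, 6 genes were called when all 24 libraries shared the estimate of spread, as were 104 of all 13323 genes. They were Stip1, Fkbp4, Hsph1, Chordc1, Cryab and Dnajb1. The list was chosen on the same values, so these calls do not test it.

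The most strongly inducible HSP70 genes did not separate the groups. Hspa1a had 1.33, 3.82 and 1.18 FPKM with PBS and 2.41, 3.14 and 8.10 FPKM with anti-PD-1, and Hspa1b had 4.68, 18.2 and 4.45 FPKM against 7.71, 11.8 and 22.8 FPKM. In both, PBS replicate 2 was high and anti-PD-1 replicate 3 highest. These 2 genes are near-identical copies, so reads may be split between them. Hspa8 (269 ± 62.1 against 345 ± 66.6 FPKM), Hsp90aa1, Hspb1 and Hspe1 overlapped as well. Leaving out any single library left the list's median between 0.33 and 0.44.

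Rbm3 and Cirbp, RNA-binding proteins that cells make when cooled, were lower in all treated libraries. This pair was also picked after its values had been seen. Rbm3, at chrX:8138975-8145880, had 77.5, 78.7 and 75.0 FPKM with PBS and 48.7, 52.5 and 58.3 FPKM with anti-PD-1 (log2 -0.53 ± 0.0891, adjusted p = 0.0673). Cirbp had 7.75, 14.3 and 16.5 FPKM with PBS and 5.53, 6.78 and 6.53 FPKM with anti-PD-1 (log2 -0.87 ± 0.206, adjusted p = 0.122). Without PBS replicate 1, its lowest PBS library, Cirbp differed by -1.17 and passed the test (limma adjusted p = 0.017), while over the other alternatives that left out 1 library its adjusted p was 0.143 to 0.299. The time, temperature and handling of each tumour before lysis are not given, and their part in the heat shock and cold-inducible genes was not tested.

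**Figure D2:**
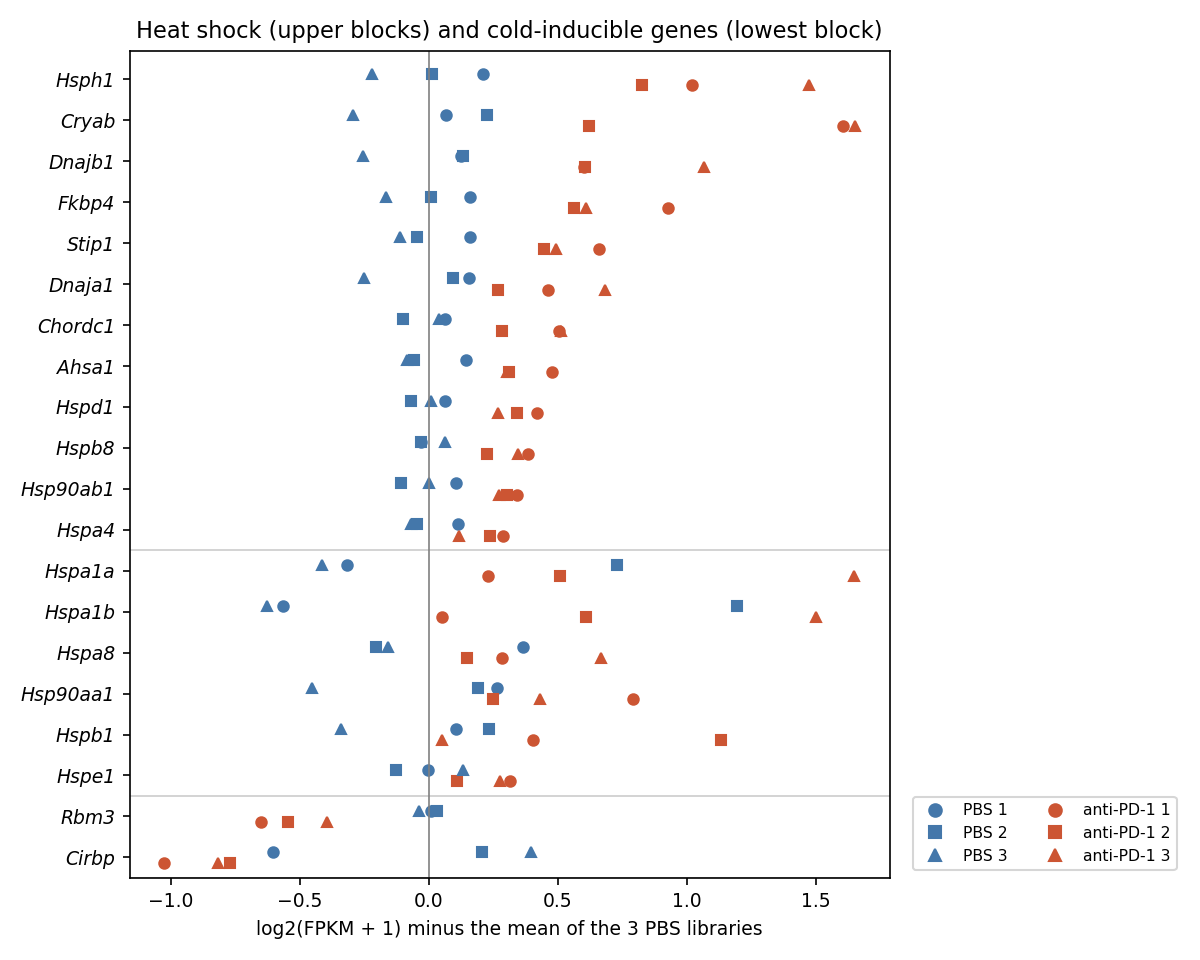
log2(FPKM + 1) of each MC38 WT library minus the mean of the 3 PBS libraries, for 12 of the 18 heat shock genes without overlap between groups (top block), the 6 with overlap (middle block) and cold-inducible genes (bottom block). PBS libraries are blue and anti-PD-1 libraries red. Red points lie right of all blue points in the top block, from Hsph1 (1.11 on average) to Hspa4 (0.21), and left of them in Rbm3 and Cirbp.

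Within a nearly level total, some macrophage genes were lower and others higher. The macrophage and monocyte list summed to 2158.1, 1915.4 and 1929.1 FPKM in the PBS libraries and to 2029.8, 1784.1 and 1923.4 FPKM with anti-PD-1. These sums mostly follow the most abundant members, such as Lyz2 (640 to 951 FPKM). Some general macrophage genes were level: C1qa, a complement component made by macrophages, had 325 ± 4.63 and 324 ± 9.38 FPKM, and Cd68 and Csf1r differed by 0.03 ± 0.163 and -0.05 ± 0.196. Of 17 tested members, 2 were higher without overlap (10.1% of all genes were) and 3 lower (8.43%). The higher ones were Adgre1 (37.8, 37.4 and 30.1 FPKM with PBS, 45.8, 45.9 and 44.3 FPKM with anti-PD-1) and Fcgr4. The lower ones were Arg1, Mrc1 and Trem2. Several genes of alternatively activated macrophages were lower. In that list, assembled after values had been seen, 7 of 12 tested members were lower in every treated library (8.43% of all genes were), and the median was -0.58. The other 5 overlapped, and 4 of them had a difference above 0: Retnla (0.27 ± 1.41, up to 30.7 FPKM in anti-PD-1 replicate 2), Clec10a (0.24 ± 0.609), Stab1 (0.14 ± 0.157) and Folr2 (0.07 ± 0.573). Arg1, the arginase that depletes arginine, had 55.4, 56.9 and 113 FPKM with PBS and 30.8, 12.3 and 49.9 FPKM with anti-PD-1 (log2 -1.37 ± 0.436, adjusted p = 0.202). Much of its distance came from PBS replicate 3 and anti-PD-1 replicate 2, and without both the difference was -0.50. Clec7a, the beta-glucan receptor dectin-1, had 35.8, 28.0 and 39.0 FPKM against 15.9, 7.71 and 12.8 FPKM (log2 -1.46 ± 0.254, adjusted p = 0.0714). The lectin Mgl2 was at 4.29 ± 0.521 against 1.51 ± 1.37 FPKM. The chemokine Ccl22 was at 2.03, 2.83 and 1.68 FPKM with PBS and 1.17, 0.429 and 0.462 FPKM with anti-PD-1 (log2 -0.92 ± 0.233, adjusted p = 0.138).

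Chemokine receptors of monocytes were lower beside them. Ccr2, through which inflammatory monocytes leave the marrow for CCL2, had 8.93, 13.2 and 11.4 FPKM with PBS and 4.90, 5.57 and 4.16 FPKM with anti-PD-1 (log2 -1.04 ± 0.268, adjusted p = 0.144). Ccr1 was at 20.2 ± 1.55 against 12.6 ± 2.52 FPKM (log2 -0.65 ± 0.143, adjusted p = 0.101). Formyl peptide and other innate receptors of monocytes and granulocytes went the other way. In a list of them also assembled afterwards, 8 of 14 tested members were higher in every treated library (10.1% of all genes were), Ccr1 alone was lower (8.43% of all genes), and the median was 0.29. Fpr1 had 2.03, 2.21 and 0.808 FPKM with PBS and 5.52, 4.82 and 3.36 FPKM with anti-PD-1 (log2 1.08 ± 0.365, adjusted p = 0.225). Fpr2 was at 4.25 ± 0.982 against 8.60 ± 1.03 FPKM (log2 0.88 ± 0.311). Cd300e, an activating receptor of monocytes, had 1.51, 0.715 and 0.555 FPKM with PBS and 2.24, 4.57 and 3.11 FPKM with anti-PD-1 (log2 1.16 ± 0.367), and the lectin receptor Clec4b1 differed by 1.07 ± 0.326. Neutrophil markers were too low to say more, since only 3 of 14 passed the filter.

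Mast cell proteases were higher with anti-PD-1, above all in replicate 1. Mcpt2, a chymase of mucosal mast cells at chr14:56042041-56044642, had 2.04, 1.53 and 2.05 FPKM with PBS and 25.9, 5.69 and 6.05 FPKM with anti-PD-1. This was the highest difference among protein-coding genes without overlap and with at least 2 FPKM, 1.92 ± 0.437 (adjusted p = 0.109), and it was 1.26 without anti-PD-1 replicate 1. Tpsb2, a tryptase, had 2.10, 1.64 and 0.887 FPKM against 9.72, 5.49 and 2.19 FPKM (log2 1.28 ± 0.411). Cpa3, Cma1 and Mcpt4 were also highest in anti-PD-1 replicate 1, but their lowest treated library, replicate 3, fell within the PBS range. Of 4 tested members of the mast cell list, Tpsb2 alone was higher without overlap (10.1% of all genes were). The receptor genes Kit (at most 1.04 FPKM) and Fcer1a (at most 1.33 FPKM) were under the filter and overlapped between groups. Ms4a2 was higher with anti-PD-1 but had 0.167 FPKM or less. The summed FPKM of the list, mostly from proteases, was 16.4, 9.31 and 5.11 with PBS and 44.5, 22.7 and 12.6 with anti-PD-1. Keratinocyte genes were also highest in anti-PD-1 replicate 1, where the skin list summed to 30 FPKM against 7.26 to 10.3 FPKM in the other libraries, and Krt10 had 8.82 FPKM against 1.53 to 1.87 FPKM. The part of skin in the mast cell values was not tested.

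Of 10 tested natural killer cell genes, Klra4 alone was higher without overlap (10.1% of all genes were). The 2 lower without overlap were Gzmc and Klrb1c (8.43% of all genes were), and the other 7, with Ncr1 among them, overlapped. So few members do not set this list apart from all genes. Gzmc, granzyme C, had 56.5, 53.9 and 97.7 FPKM with PBS and 42.4, 21.4 and 42.3 FPKM with anti-PD-1 (log2 -0.96 ± 0.380). Klra4, a receptor of the Ly49 family, was higher at 164, 144 and 134 FPKM against 91.5, 113 and 92.4 FPKM (log2 0.57 ± 0.103, adjusted p = 0.0739). The Ly49 genes are similar copies, and its level was far above that of the other NK receptors, such as Ncr1 (2.17 ± 0.536 and 1.14 ± 0.600 FPKM). Klrb1c was lower in all treated libraries, at 0.650 ± 0.134 against 1.18 ± 0.102 FPKM.

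**Figure D3:**
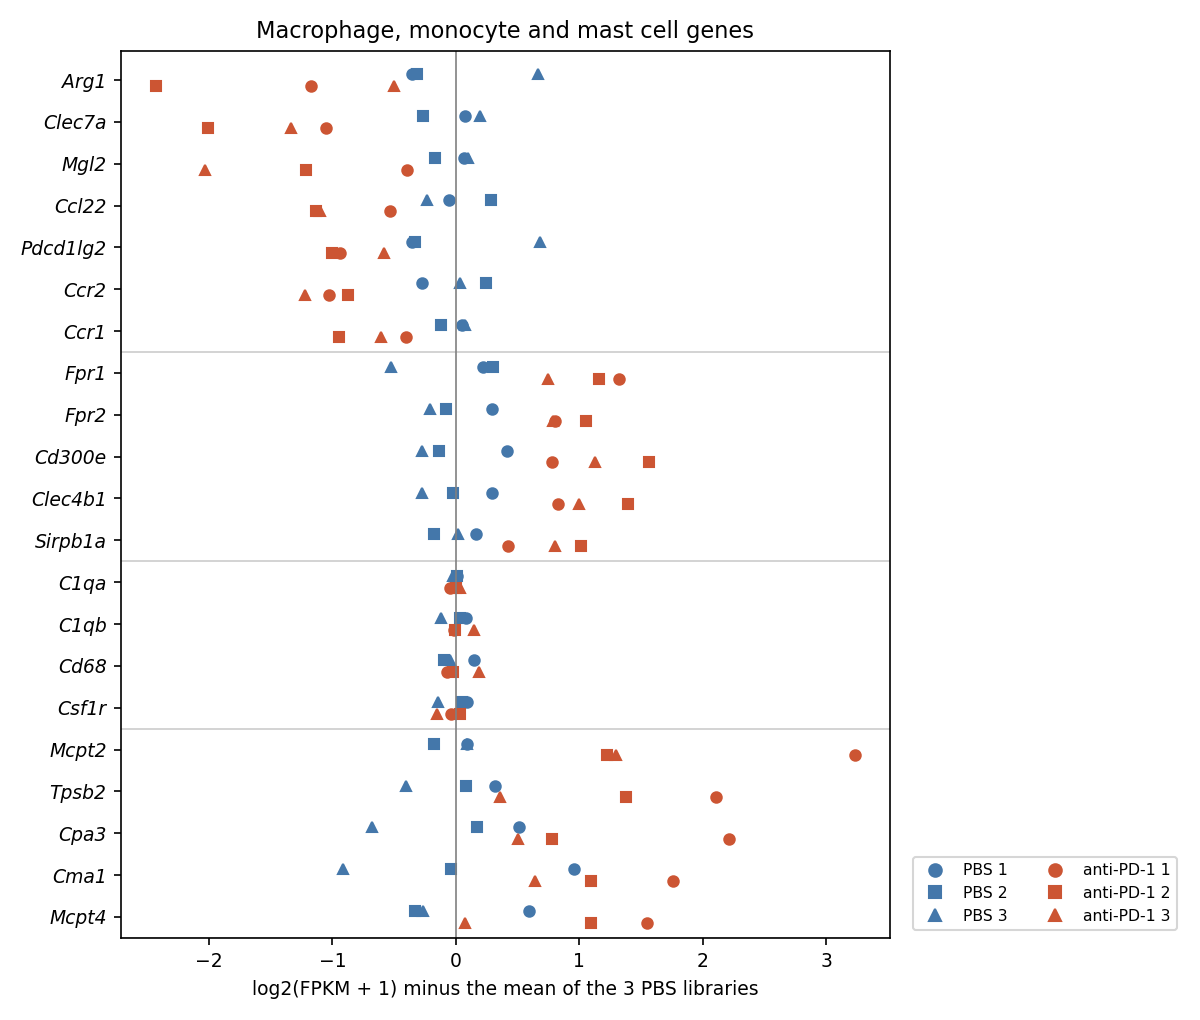
log2(FPKM + 1) of each MC38 WT library minus the mean of the 3 PBS libraries, in blocks for alternative activation and chemokine receptors, innate receptors, general macrophage genes and mast cell proteases (top to bottom). The general macrophage genes shown, all with overlap, cluster around 0. The top block lies left and the innate receptors right of the PBS points, and anti-PD-1 replicate 1 (red circles) is farthest right in the mast cell block.

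Beyond these groups, the largest differences among protein-coding genes without overlap fell in several functions. After Mcpt2 the highest were Pcyt1a, the rate-limiting enzyme of phosphatidylcholine synthesis, Cryab, Tpsb2 and Ldah, a lipid droplet hydrolase. Pcyt1a had 2.47, 2.63 and 1.88 FPKM with PBS and 8.94, 8.84 and 8.15 FPKM with anti-PD-1 (log2 1.54 ± 0.316, adjusted p = 0.0866). Ldah had 2.30, 1.77 and 1.88 FPKM against 6.26, 6 and 6.17 FPKM (log2 1.26 ± 0.334, adjusted p = 0.147). Both were tight within each group of WT tumours, and together with Colgalt1, a collagen galactosyltransferase (20.2 ± 1.33 against 36.7 ± 0.92 FPKM), they were the 3 genes called when only the 6 WT libraries entered the fit (adjusted p = 0.0187 for Pcyt1a). Igfbp4, Cd300e, Sumo3, Prl2c2 and Hsph1 completed the 10 highest, at differences of 1.11 to 1.26. Prl2c2 belongs to a family of near-identical proliferin genes and its value is uncertain.

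On the lower side, Igf2, a fetal growth factor expressed by some tumour cells, had 5.64, 5.41 and 14.1 FPKM with PBS and 1.16, 0.0611 and 1.29 FPKM with anti-PD-1. This difference of -2.31 ± 0.387 (adjusted p = 0.0673) at chr7:142650766-142666816 was the largest among protein-coding genes without overlap, and no alternative brought it nearer to 0 than -1.55. Ak4, a mitochondrial adenylate kinase, was at 17.8 ± 4.65 against 4.77 ± 3.00 FPKM (log2 -1.79 ± 0.655), and Enpp2, which makes lysophosphatidic acid, at 8.61 ± 3.51 against 2.07 ± 1.36 FPKM (log2 -1.67 ± 0.377, adjusted p = 0.107). Arg1, Mgl2, Lims1, Pmp22, Laptm4b, Ccr2 and Mmp13 completed the 10. Laptm4b, a lysosomal membrane protein, had 76.6, 86.4 and 83.3 FPKM with PBS and 29.7, 53.9 and 36.1 FPKM with anti-PD-1 (log2 -1.06 ± 0.237). Lims1 was near the PBS range in anti-PD-1 replicate 1 alone (30.6 FPKM against 10.5 and 11.7 FPKM), and it was called without that library (adjusted p = 0.00732).

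The smallest p-values belonged to genes with modest but even differences. Masp1, a protease of the lectin complement pathway at chr16:23449417-23520815, had 2.12, 3.32 and 2.84 FPKM with PBS and 0.910, 0.757 and 1.08 FPKM with anti-PD-1 (log2 -0.96 ± 0.139, adjusted p = 0.0654). Rab39b, a small GTPase of vesicle traffic, had 6.18, 6.23 and 6.52 FPKM against 9.94, 9.35 and 9.48 FPKM (log2 0.54 ± 0.0784, adjusted p = 0.0654). Fabp5, a fatty acid binding protein, was lower at 15.2, 16.9 and 15.5 FPKM against 25.9, 24.1 and 21.9 FPKM. Scara3, Nav1, Gemin6 and Pdxp had the same adjusted p of 0.0654 as Masp1, with differences of -0.71, -0.59, 0.42 and 0.53.

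The TGF-beta list had members in both directions. Ccn2, a matricellular target (log2 0.61 ± 0.306), and the feedback inhibitor Smad7 (log2 0.35 ± 0.171) were higher without overlap (10.1% of all genes were). Of 12 tested members, 4 were lower without overlap (8.43% of all genes were). They were the ligand Tgfb3 (40.9 ± 4.28 against 22.7 ± 6.52 FPKM, log2 -0.86 ± 0.230), the signal transducer Smad3, the activin subunit Inhba and the secreted target Tgfbi. Tgfb1, Tgfbr1, Tgfbr2, Skil and Id1 overlapped. Of 19 fibroblast and matrix genes, 5 were lower in every treated library (8.43% of all genes were) and none higher (10.1%), while 6 had a difference above 0, up to 0.84 ± 0.534 for Tagln. The 5 lower genes were Col3a1 (428, 540 and 440 FPKM against 339, 209 and 355 FPKM), Fn1, Fbn1 and the platelet-derived growth factor receptors Pdgfra and Pdgfrb. Col1a1 went the other way only in anti-PD-1 replicate 1, with 144 FPKM against 33.0 and 36.7 FPKM in the other treated libraries and 22.8 to 58.5 FPKM with PBS. The list's median of -0.21 was -0.08 without anti-PD-1 replicate 2 and -0.34 without replicate 1.

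Proliferation and stress genes leaned upward by small amounts. Of 28 cell cycle genes 27 had a difference above 0 (7260 of all 13323 genes had), with a median of 0.14. Only 3 of the 28 were higher without overlap, near the 10.1% of all genes that were. Bub1, a mitotic checkpoint kinase, had 26.9, 26.2 and 21.6 FPKM with PBS and 35, 29.7 and 32.4 FPKM with anti-PD-1 (log2 0.37 ± 0.101, adjusted p = 0.155), and Ccne2, cyclin E2, differed by the same amount. In the DNA damage response and repair list 24 of 26 were above 0 with a median of 0.13. Only 2 of the 26 were higher without overlap, against the same 10.1% of all genes, and none was lower. Among 18 targets of p53, Cdkn1a, Phlda3, Bax and Tnfrsf10b were higher without overlap (10.1% of all genes were) and Fas was lower (8.43% of all genes were, so 1 of 18 is under that share). Cdkn1a, the cell cycle inhibitor p21, had 10.3, 8.91 and 10.8 FPKM with PBS and 12.4, 15.7 and 15.4 FPKM with anti-PD-1 (log2 0.49 ± 0.130, adjusted p = 0.147), and the death receptor Fas had 6.53, 6.25 and 7.23 FPKM against 4.10, 2.84 and 5.84 FPKM. In hypoxia and glycolysis 22 of 25 members were above 0, with a median of 0.12, and 2 were higher without overlap. Amino acid stress genes gave 3 higher (Asns, Chac1 and Shmt2) and 1 lower (Phgdh) of 13 without overlap, against the same shares of 10.1% and 8.43%.

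In the inflammatory cytokine list 2 of 7 tested members, Lif and Ptgs2, were higher in all 3 treated libraries (10.1% of all genes were) and none was lower. Lif, a cytokine of the IL-6 family, had 3.40, 3.54 and 4.31 FPKM with PBS and 5.90, 7.08 and 5.44 FPKM with anti-PD-1 (log2 0.59 ± 0.122, adjusted p = 0.0894). Ptgs2, the inducible cyclooxygenase, had 11.2, 15.5 and 16.6 FPKM against 18.3, 25.4 and 20.8 FPKM. From other lists, the neutrophil chemokine Cxcl1 was at 4.79 ± 1.07 against 7.30 ± 0.205 FPKM, and Ccl4 at 6.15 ± 1.34 against 9.66 ± 1.58 FPKM. Il1a, at 1.56 ± 0.547 and 0.690 ± 0.567 FPKM, was lower with overlap.

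The response of WT tumours differed from that of KO tumours in the test of the difference itself. That test, WT response minus KO response in the same 12 libraries, called 384 of 13323 genes (2.88%). In 99 of them (0.743%) the response of WT tumours was the higher, and in 285 (2.14%) it was the lower. The count was unstable, at 45 to 725 when 1 library was left out, lowest without KO anti-PD-1 replicate 2 and highest without KO PBS replicate 1. In KO tumours anti-PD-1 itself called 1231 genes (9.24%), 832 of them higher (6.24%) and 399 lower (2.99%). Of 11 CD8 and cytotoxic genes all 11 were called higher in KO, where the list's median was 1.79 against 0.09 in WT, and 9 of the 11 differed between genotypes. Cd8a differed by 0.10 in WT and 1.93 in KO, a gap of -1.83 ± 0.252 (adjusted p = 0.0126). For Cxcl9 the gap was -2.06 ± 0.403 (adjusted p = 0.0315), for Cd274 -1.48 ± 0.329 (adjusted p = 0.0439) and for the MHC class II gene H2-Aa -2.47 ± 0.458 (adjusted p = 0.0285). Gzmb and Pdcd1 had gaps of -1.75 and -1.10 that missed the threshold (adjusted p = 0.0578 and 0.0583). The call for Cd8a held in all 18 alternatives, those for Cxcl9 and Cd274 in 8 and 6 of 18.

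Heat shock genes were among those with the higher response in WT. Hsph1 differed by 1.11 in WT and -0.23 in KO (gap 1.33 ± 0.282, adjusted p = 0.0375), Stip1 by 0.53 in WT with almost no difference in KO (gap 0.54 ± 0.124, adjusted p = 0.0474) and Hspd1 by 0.34 and -0.09 (gap 0.43 ± 0.0982, adjusted p = 0.0454). These 3 of 24 members were called (0.743% of all genes were higher by this test). None was called in the other direction, and the list's median was -0.02 in KO and -0.05 in B16 WT tumours. The list was assembled on the same WT values that enter the gap, so neither this count nor these medians test it. The calls were lost in most alternatives, held in 7 of 18 for Hsph1 and 4 of 18 for Stip1 and Hspd1. Leaving out any single WT library ended all 3. Other genes with a higher response in WT were Lif (gap 1.01 ± 0.173, adjusted p = 0.0232), Rab39b (gap 0.89 ± 0.111, adjusted p = 0.0104) and the growth-cone protein Gap43 (gap 1.45 ± 0.270, adjusted p = 0.0287). Among genes with the lower response in WT were Igf2 (gap -2.65 ± 0.547, adjusted p = 0.0358), Clec7a (gap -2.10 ± 0.359, adjusted p = 0.0232), Masp1 (gap -0.98 ± 0.196, adjusted p = 0.0332) and H2-Q6 (gap -0.55 ± 0.110, adjusted p = 0.0329). The call for Rab39b held in 18 of 18 alternatives, for Clec7a in 12 of 17, for Masp1 in 8, for Igf2 in 7 and for H2-Q6 in 6 of 18.

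The 3 highest gaps among named genes were small structural RNAs, the 5.8S ribosomal copy n-R5-8s1 (3.27 ± 0.410), the signal recognition particle RNA Rn7s1 (3.19 ± 0.699) and the Y RNA Rny1 (1.92 ± 0.425). In WT they differed by 0.06, 0.43 and 0.21 with overlap. Small structural RNA held 0.366% to 0.473% of FPKM in the 6 WT libraries, 0.554% to 0.621% in the KO PBS libraries and 0.455% to 0.486% in KO tumours with anti-PD-1. The part of this difference in the other gaps was not tested.

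Of the 14 monocyte and granulocyte receptors, 3 had a called gap from KO, all with the lower response in WT (2.14% of all genes had one). They were Ccr1, which differed by -0.65 in WT and 0.34 in KO (gap -1.0 ± 0.203, adjusted p = 0.0346), Csf3r, the receptor of granulocyte colony-stimulating factor (0.17 and 1.49, adjusted p = 0.0396), and Sirpb1c (0.09 and 1.01, adjusted p = 0.0497). The list's median gap was -0.87. Other genes had gaps that missed the threshold, which does not show that the sizes are alike. Fpr2 differed by 0.88 in WT and 1.88 in KO (gap -1.0 ± 0.440), Cd300e by 1.16 and 1.78 (gap -0.63 ± 0.519) and Mcpt2 by 1.92 and 2.24 (gap -0.32 ± 0.618). Gemin6 differed by 0.42 and 0.39, with a gap of 0.03 ± 0.0970. The gaps of Fpr2, Cd300e, Mcpt2 and Gemin6 were not called.

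Against B16 WT tumours the test of the difference called 0 of 13323 genes (0%), with a smallest adjusted p of 0.0638 and 995 genes at an unadjusted p under 0.05. At 3 libraries a group, a gap under this threshold does not show that the lines respond alike. Medians in B16 WT were 0.18 for the CD8 list, 0.33 for interferon-gamma response and 0.28 for MHC class I, against 0.09, -0.15 and -0.14 in MC38 WT. For Arg1 the differences were -1.37 in MC38 and -0.87 in B16, and for Hsph1 1.11 and 0.02.

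**Figure D4:**
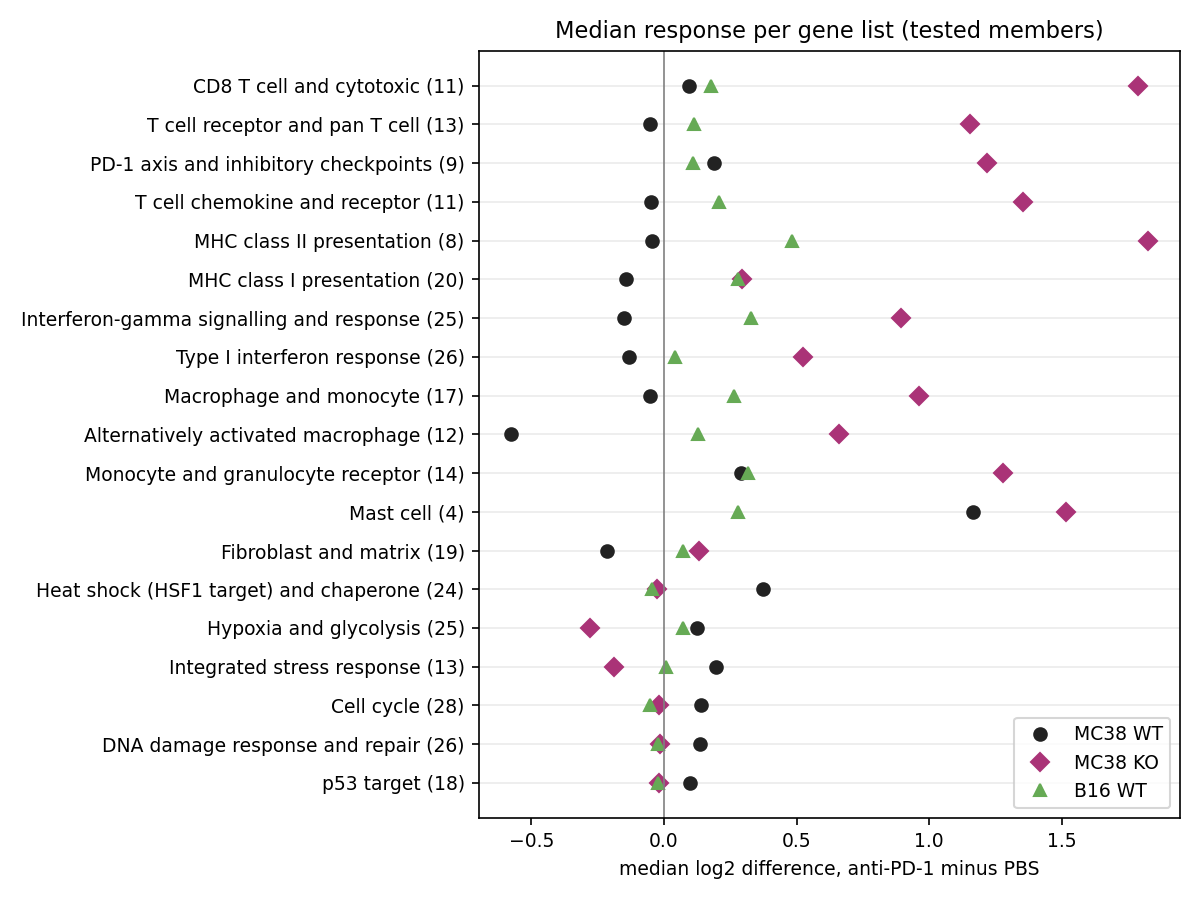
Median log2 difference, anti-PD-1 minus PBS, over the tested members of 19 gene lists (number in brackets) in MC38 WT (black circles), MC38 KO (purple diamonds) and B16 WT tumours (green triangles). T cell and MHC class II lists lie near 0 in MC38 WT and above 1 in MC38 KO, while the heat shock list, chosen after values were seen, lies at 0.37 in MC38 WT and near 0 in the others.

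Markers of host tissues differed widely between libraries of 1 group. The 30 skeletal muscle markers summed to 63.7, 14.6 and 13.7 FPKM with PBS and to 40.5, 527.6 and 35.4 FPKM with anti-PD-1. Acta1, skeletal muscle actin, had 95.2 FPKM in anti-PD-1 replicate 2 and 12.3 FPKM or less elsewhere. Adipocyte markers were highest in the same library, at 183.9 FPKM against 9.17 to 53.7 FPKM, led by Cfd (68.3 FPKM) and Car3 (55.6 FPKM). Without that library the median difference of muscle genes went from 1.74 to 0.53 and that of fat genes from 0.93 to 0.24. Erythroid genes were lower in anti-PD-1 replicates 1 and 2, at sums of 105.2 and 150.4 FPKM, than in replicate 3 (281.5 FPKM) and the PBS libraries (275.3 to 290.1 FPKM). No gene of the muscle, fat or erythroid lists was called. Their part in the other differences was not tested. Without anti-PD-1 replicate 2 the median went from 0.37 to 0.41 for heat shock genes, from -0.58 to -0.64 for alternatively activated macrophages and from 0.09 to 0.18 for CD8 genes. It went from -0.14 to -0.05 for MHC class I, from -0.15 to -0.01 for interferon-gamma response and from -0.13 to 0.01 for type I interferon response.

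**Figure D5:**
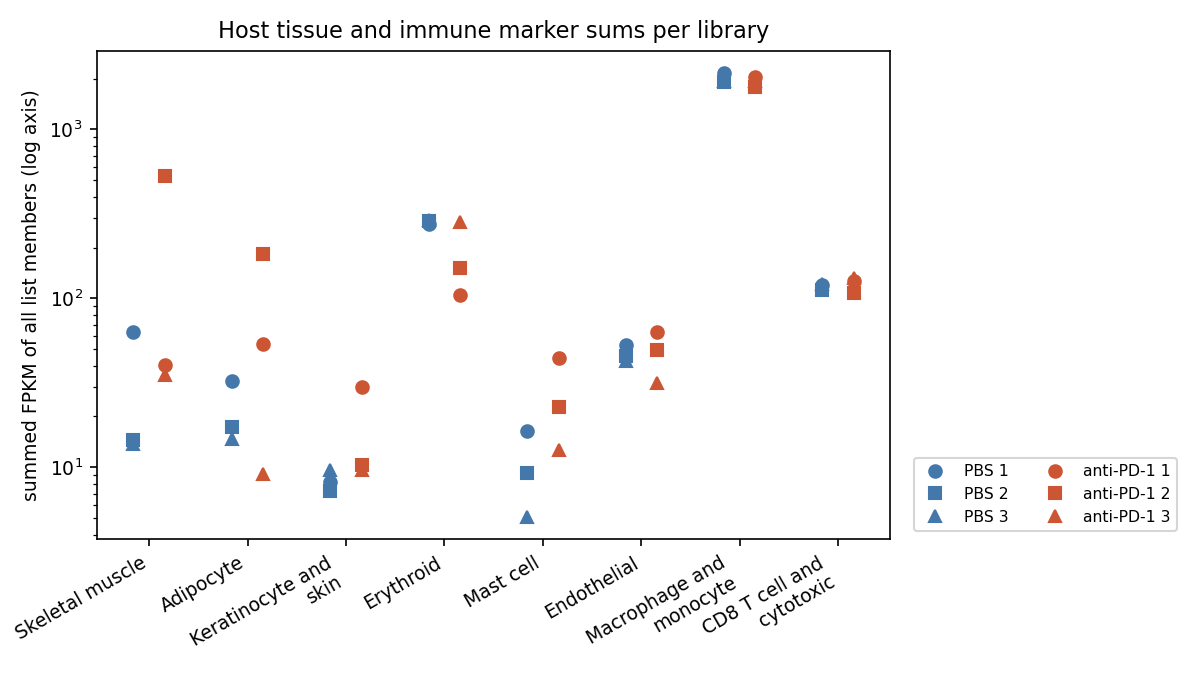
Summed FPKM of all members of 8 marker lists in each library, on a log axis, with PBS in blue, anti-PD-1 in red and symbols for replicates. Anti-PD-1 replicate 2 (red squares) stands apart in skeletal muscle (527.6 FPKM) and fat (183.9 FPKM), while macrophage sums (1784.1 to 2158.1 FPKM) and CD8 sums are close in all 6 libraries. Sums mostly follow abundant members, such as Lyz2 (640 to 951 FPKM) for macrophages and Ccl5 (43.4 to 48.5 FPKM) for the CD8 list.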

How the data were processed

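Per the labels, tumour RNA was extracted with Trizol and sequenced by standard Illumina methods; strand and poly(A) selection are not stated. Tools named in the submitters' processing notes, without role or order, are Cuffnorm, DESeq, FastQC and STAR 2.5, and the build is mm10. Each deposited file holds 1 column of values, read here as FPKM because of their decimals and unequal sums; the authors' normalization and filters are not stated. Of 55335 gene IDs, 55154 matched the GENCODE annotation of mm10.

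Groups came from the labelled condition, and replicate numbers only name samples. Values were analysed as log2(FPKM + 1) with limma 3.58.1 in R 4.3.3, with 1 mean per group over the 12 MC38 libraries, a mean-variance trend and Benjamini-Hochberg adjustment over 13323 genes, called at an adjusted p under 0.05. The contrast with KO used the same fit, and that with B16 all 24 libraries. No pair of libraries shared more than 0.0302% of nonzero values. The steps were tested on simulated data.

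Named genes were Chek2 and a panel of 8 immune genes (Foxp3, the 1 under the filter, was not tested), the 10 largest differences per direction among protein-coding genes without overlap and with a mean of at least 2 FPKM in the higher group, the 10 smallest p-values, the 2 largest differences of each of 37 gene lists, and the 4 largest called differences from KO in each direction. The other genes named, and 5 further lists (heat shock, cold-inducible, alternatively activated macrophage, monocyte and granulocyte receptor, mast cell protease), were chosen after their values were seen. Members, lists and rule were all chosen with earlier results of these data known. The results of 1 gene that the rule names are not reported here.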

Additional observations from a re-analysis of the deposited data

Results flagged for a closer look

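The anti-PD-1 response differed between WT and KO tumours, by limma's test of the difference itself, in 384 genes. Of the genes reported here that entered the alternative runs, 37 were among them, at adjusted p-values of 0.0104 to 0.0474. Of these, 5 (Cd8a, Trac, Fabp5, Rab39b and n-R5-8s1) kept the call in every alternative run. Csf3r and Sirpb1c, given above, were called as well but did not enter those runs and are not counted. All values are the WT minus the KO log2 difference. Of the 37, the response was lower in WT for 25. T cell and effector genes were Trac (-2.49), Trbc2 (-2.06), Cd8a (-1.83), Ifng (-1.76), Cd8b1 (-1.57), Prf1 (-1.48), Havcr2 (-1.08) and Tnfrsf4 (-0.95). Antigen presentation and interferon-induced genes were H2-Aa (-2.47), H2-Eb1 (-2.35), Cxcl9 (-2.06), Gbp4 (-1.64), Cd274 (-1.48), H2-DMb2 (-1.26), H2-K1 (-0.65) and H2-Q6 (-0.55). Myeloid and complement genes were Ly6c2 (-2.20), Clec7a (-2.10), C1ra (-1.16), Ccr1 (-1.0) and Masp1 (-0.98), and the others were Igf2 (-2.65), Cdh1 (-1.17), Tgfbi (-1.15) and Fabp5 (-0.86). The response was higher in WT for 12. They were Hsph1 (1.33), Stip1 (0.54) and Hspd1 (0.43), the p53 targets Phlda3 (0.59) and Tnfrsf10b (0.55), then Gap43 (1.45), Lif (1.01), Rab39b (0.89) and Pdxp (0.68), and the structural RNAs n-R5-8s1 (3.27), Rn7s1 (3.19) and Rny1 (1.92).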

How the results depend on the processing

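No paired analysis was possible because the labels give no replicate numbers that groups share. The count of 0 genes became 104 with all 24 libraries in the fit, 3 with the 6 WT libraries alone, 5 with no filter, 13 with array weights, 6 with only the treated library titled with C, and 4 with neither end of the first principal component (an alternative chosen after seeing the data). Leaving out 1 library gave 0 to 3. The 384 genes that differed from KO became 207 with all 24 libraries and 45 with no filter, and 45 to 725 without 1 library. The 0 genes that differed from B16 became 7 with no filter, 3 with quantile normalization, 1 with protein-coding genes rescaled and 3 with no mean-variance trend, and 0 to 7 without 1 library. The causes were not tested. Where 1 library is left, it is assumed to vary like the other groups.

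Of 2512 values for 148 genes, 27 changed sign, in 15 genes. With neither end of the component these were Cd274 (0.17), Cd8a (-0.13), Chek2 (-0.060), Cxcl9 (0.12), Ifng (0.27), Prf1 (0.25) and Car3 (-0.037). With only the library titled with C they were Cxcl9 (0.10), Ifng (0.19), Cd4 (0.20), Igkc (0.087), Ly6c2 (0.020), Clec9a (0.48), Ccr7 (0.015), Flt1 (0.030) and Krt18 (0.45), and with array weights Ifng (0.066) and Prf1 (0.0067). Without 1 library, differences ran from -0.11 to 0.23 for Cd8a, -0.043 to 0.13 for Chek2, -0.34 to 0.074 for Cxcl9, -0.056 to 0.42 for Gzmb, -0.18 to 0.21 for Ifng, -0.27 to 0.13 for Prf1 and -0.29 to 0.0057 for Cd4. Of the values for genes that differed from KO, 359 kept the call and 319 lost it. Of the list medians 37 moved by more than the spread, 9 of them across 0. The median standard error of 0.11 limits which differences could be detected.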
